A study of Mus musculus with 4 samples.

Results

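The 30 genes described here encode enzymes and control proteins of cholesterol and fatty acid synthesis. They were taken by symbol from a list and all 30 were found among the 32285 features of the count matrices. The cells were CD8 T cells positive for CD44 and CD90.1, sorted from lymph nodes draining a tumour in C57BL/6 mice, 14 days after the tumour was implanted. In the M9 group the GP33 antigen is labelled high affinity and in the C6M9 group low affinity. Each group had 2 libraries, and the labels call them biological duplicates. According to the protocol text, cells were taken from 10 mice for M9 and from 35 mice for C6M9, so each library pools animals and no cell can be traced to a mouse. The labels name neither the age of the mice nor the tumour line. Nothing says how the mice were split between the duplicates, so p-values measure the spread between these libraries.

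Cholesterol is built from acetyl-CoA through mevalonate, isoprenoid diphosphates, squalene and lanosterol, and fatty acids are built from malonyl-CoA and then elongated and desaturated. Both routes are switched on by the SREBP transcription factors, SREBP2 mainly for sterol genes and SREBP1 mainly for fatty acid genes, which the INSIG proteins hold in the endoplasmic reticulum when sterol is plentiful. T cells that divide need both routes for new membrane, while LXR receptors drive the export of excess sterol. The list holds 6 mevalonate and isoprenoid genes, 11 genes from squalene to cholesterol, 3 genes of sterol control and transport (Insig1, Srebf2, Stard4) and 10 fatty acid genes.

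The deposited counts held 11113 cell barcodes, of which 7 occurred in more than 1 library, and 9924 T cells were analysed: 4101 and 1199 in M9 replicates 1 and 2, and 2889 and 1735 in C6M9 replicates 1 and 2. Median depth was 13205 and 20024 UMIs (unique molecules) per T cell in M9 and 13993 and 21488 in C6M9. Replicate 2 of each group was therefore deeper per cell and had fewer cells. Cell-cycle phase calls, which use no member gene, placed 7.56% and 7.59% of M9 cells but 10.6% and 10.7% of C6M9 cells in S phase. Summed B cell marker genes stood at 328 and 320 CPM (UMIs scaled to the library total) in M9 T cells and at 352 and 388 CPM in C6M9. Summed markers of CD4 T cells (6 genes, of which Il2ra is also TCR-induced) went the other way, at 159 and 105 CPM in M9 and 73.3 and 88.4 CPM in C6M9. Cd8a, the defining gene of the sorted lineage, was at 520 to 582 CPM in every library. Summed red cell and platelet markers did not exceed 0.133 CPM in any library, and summed natural killer markers lay between 2.4 and 5.68 CPM.

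RefSeq promoters of build GRCm38.p6 were at hand for 23 of the 30 members. Motifs were searched on both strands in the 250 bases before each start, and a motif match may overlap another. Up to 150 bases before the start are shown for 5 members. Hmgcs1 is the single member with a sterol regulatory element match, Sc5d carries an E box, Fasn and Acsl3 are fatty acid genes that were higher in S phase cells, and Elovl6 is one that was not. All run 5′ to 3′ on the gene's strand, and capitals mark a match to TCACNCCAC (sterol regulatory element, known to be bound by SREBP), CCAAT (known to be bound by NF-Y), GGGCGG (GC box, known to be bound by SP1) or CACGTG (E box).
Hmgcs1, chr13:119690201-119690350, plus strand: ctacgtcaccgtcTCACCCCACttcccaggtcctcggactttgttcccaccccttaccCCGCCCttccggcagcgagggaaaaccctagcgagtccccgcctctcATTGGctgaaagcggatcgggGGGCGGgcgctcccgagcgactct
Sc5d, chr9:42264301-42264450, minus strand: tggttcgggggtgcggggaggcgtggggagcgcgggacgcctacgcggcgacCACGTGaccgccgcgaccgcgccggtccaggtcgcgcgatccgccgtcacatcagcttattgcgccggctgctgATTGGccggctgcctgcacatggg
Fasn, chr11:120824548-120824697, minus strand: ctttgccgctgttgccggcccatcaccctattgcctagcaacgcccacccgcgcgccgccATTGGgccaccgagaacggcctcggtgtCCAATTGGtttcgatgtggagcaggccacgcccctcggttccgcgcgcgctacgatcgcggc
Acsl3, chr1:78657675-78657824, plus strand: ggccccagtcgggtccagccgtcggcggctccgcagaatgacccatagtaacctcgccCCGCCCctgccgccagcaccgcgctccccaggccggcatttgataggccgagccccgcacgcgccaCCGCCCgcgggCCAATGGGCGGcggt
Elovl6, chr3:129532236-129532354, plus strand: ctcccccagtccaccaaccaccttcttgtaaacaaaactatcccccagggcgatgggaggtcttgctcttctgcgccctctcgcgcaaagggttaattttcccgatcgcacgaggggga

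The Elovl6 stretch stops short of the start, because the GENCODE gene model begins 31 bases before the RefSeq start. CCAAT was found in 19 of the 23 members with a promoter, against 37.5% of all 27025 genes with a promoter and 40.6% of the 10110 such genes that were tested over all T cells. GGGCGG was also found in 19 of 23 members, against 35.4% and 62.0% of those genes. The E box was found in 4 (Dhcr7, Hsd17b7, Insig1 and Sc5d), against 6.86% and 9.81%. TCACNCCAC was found in 1, against 1.22% and 1.20%. A match is a string of letters and not a measured binding site.

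In cells called S phase, 25 of 28 tested members were higher than in G1 cells of the same library and none was lower (edgeR quasi-likelihood test, Benjamini-Hochberg adjusted p under 0.05 over 11609 genes). The background for this split is high, since 36.4% of all tested genes were higher and 38.2% were lower in S phase. The median log2 difference was 0.81 over the members and -0.04 over all tested genes. In G2M cells 26 of 28 members were higher and none lower, where 31.5% of 12065 genes were higher, and the members' median was 0.67. Scd1 and Fads2 had too few UMIs to be tested in either split.

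Idi1, which isomerises isopentenyl diphosphate, had the largest log2 difference of the members. Its level was 8.19 and 9.02 CPM in G1 cells of M9 and 11.3 and 9.95 CPM in G1 cells of C6M9. In S phase cells it was 56.4 and 61.7 CPM in M9 and 66.6 and 64.6 CPM in C6M9. Every S phase value was thus above every G1 value, the log2 difference was 2.70 ± 0.06 (SE) and the edgeR adjusted p was 2.22e-14. Per cell, Idi1 went from between 0.117 and 0.223 UMIs in G1 to between 2.08 and 4.07 UMIs in S phase, in libraries whose median total went from 12098, 18257, 11261 and 16556 UMIs in G1 to 33192, 48075, 38486 and 53066 in S phase (M9 replicates 1 and 2, then C6M9 replicates 1 and 2). The CPM values are relative to that total. The gene lies on chr13:8885501-8892451, plus strand, GRCm38, and has a near copy, Idi2, with which reads could be shared.

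The rest of the mevalonate branch split into genes that rose strongly, moderately or not at all. Fdps, farnesyl diphosphate synthase, rose from 17.2, 16.2, 23.0 and 21.7 CPM in G1 to 64.0, 62.8, 75.4 and 69.2 CPM in S phase (M9 replicates 1 and 2, then C6M9 replicates 1 and 2). Its groups did not overlap and its log2 difference was 1.80 ± 0.06 (SE), with an edgeR adjusted p of 1.28e-12. Hmgcs1, which makes HMG-CoA, rose from 21.2, 23.3, 27.5 and 25.5 CPM to 37.2, 37.3, 37.2 and 39.5 CPM in the same order of libraries, by 0.64 ± 0.07 on the log2 scale. Pmvk, phosphomevalonate kinase, rose from a range of 16.2 to 23.2 CPM to a range of 34.7 to 39.7 CPM (log2 0.90 ± 0.07 SE). Mvd, mevalonate diphosphate decarboxylase, rose by 0.44 ± 0.16 in 3 of 4 libraries, with overlapping ranges of 4.49 to 8.87 and 8.67 to 10.96 CPM, and its call was lost without M9 replicate 1 (edgeR adjusted p = 0.102) or without M9 replicate 2 (0.0803). Mvk, mevalonate kinase, was at 8.83 to 10.9 CPM in G1 and 8.59 to 12.6 CPM in S phase, and did not pass the test (log2 0.09 ± 0.10, adjusted p = 0.445).

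All 11 genes from squalene to cholesterol were higher in S phase. Sqle, squalene epoxidase and a rate-limiting step, rose from 3.62, 5.26, 4.80 and 4.59 CPM to 16.8, 22.5, 17.1 and 18.0 CPM (M9 replicates 1 and 2, then C6M9 replicates 1 and 2). Cyp51, lanosterol demethylase, rose from 12.6, 12.9, 12.8 and 8.95 CPM to 47.0, 44.4, 44.7 and 41.7 CPM. Neither gene had an S phase library as low as any G1 library. The log2 differences were 2.03 ± 0.10 for Sqle (edgeR adjusted p = 7.82e-11) and 1.92 ± 0.07 (SE) for Cyp51 (7.51e-12). Next in size were Lss, lanosterol synthase (log2 1.08 ± 0.16), Hsd17b7, a sterol ketoreductase (1.06 ± 0.13), Fdft1, squalene synthase (0.94 ± 0.09), Tm7sf2, a sterol reductase (0.87 ± 0.15), and Sc5d, a sterol desaturase (0.75 ± 0.08). The other 4 rose by less than these: Ebp, a sterol isomerase (0.41 ± 0.05), Msmo1, which removes sterol methyl groups (0.34 ± 0.10), Nsdhl, which acts in the same demethylation (0.34 ± 0.09), and Dhcr7, the last reductase (0.26 ± 0.08). Every one of these 9 genes was higher in S phase in 4 of 4 libraries. The Dhcr7 call was lost without C6M9 replicate 1 (adjusted p = 0.0571).

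Of the control and transport genes, Insig1 and Stard4 were higher in S phase. Srebf2, which encodes SREBP2, was at 34.6, 40.8, 41.9 and 45.4 CPM in G1 and 44.6, 49.0, 41.5 and 44.5 CPM in S phase (M9 replicates 1 and 2, then C6M9 replicates 1 and 2), higher in 2 of 4 libraries and not past the test (log2 0.14 ± 0.07, adjusted p = 0.0773). In G2M cells it was higher in 4 of 4 libraries (0.29 ± 0.08, edgeR adjusted p = 0.00641). Insig1, the sterol sensor that retains SREBP, was at 10.5, 8.30, 6.87 and 10.6 CPM in G1 and 15.5, 11.9, 12.1 and 12.6 CPM in S phase, and rose by 0.53 ± 0.10. Stard4, a cytosolic sterol carrier, rose from a range of 16.1 to 19.3 CPM to a range of 36.8 to 46.0 CPM (log2 1.21 ± 0.07).

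Of the 8 fatty acid genes tested, 7 were higher in S phase. Fasn, fatty acid synthase, rose from 17.6, 18.0, 17.9 and 17.5 CPM in G1 to 40.9, 48.0, 47.8 and 49.0 CPM in S phase (M9 replicates 1 and 2, then C6M9 replicates 1 and 2), a narrow G1 range and no overlap. Its log2 difference was 1.38 ± 0.06 (SE, edgeR adjusted p = 3.74e-11). Acaca, which makes malonyl-CoA, rose by 0.98 ± 0.08, from a range of 8.15 to 12.4 CPM to a range of 16.5 to 23.8 CPM. Fads1, a front-end desaturase, rose by 1.99 ± 0.13 (2.65 to 3.24 CPM in G1, 9.08 to 14.7 CPM in S phase). Acsl3, which activates long-chain fatty acids, also rose by 1.99, with an SE of 0.15 (1.19 to 2.10 CPM, then 5.32 to 7.33 CPM).

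The remaining fatty acid genes had smaller differences between phases. Acly, which supplies cytosolic acetyl-CoA to both routes, was at 44.3, 48.6, 46.8 and 48.3 CPM in G1 and 55.3, 54.8, 54.3 and 59.8 CPM in S phase (log2 0.26 ± 0.05). Srebf1, which encodes SREBP1, was at 16.2, 15.8, 16.2 and 16.2 CPM in G1 and 22.1, 24.3, 20.9 and 21.7 CPM in S phase (0.45 ± 0.07). Both were higher in 4 of 4 libraries, with no overlap between phases. Scd2, a stearoyl-CoA desaturase, was at 111, 114, 52.9 and 53.0 CPM in G1 and 108, 127, 68.8 and 64.3 CPM in S phase (M9 replicates 1 and 2, then C6M9 replicates 1 and 2), so that the antigen groups lay further apart than the phases did. Its log2 difference of 0.18 ± 0.06 passed the edgeR test (adjusted p = 0.0134) but not without C6M9 replicate 1 (0.101). Elovl6, which lengthens palmitate, was lower in S phase in 4 of 4 libraries, at 9.67 to 12.1 CPM in G1 and 8.90 to 10.4 CPM in S phase, and did not pass the test (log2 -0.20 ± 0.09, adjusted p = 0.0509). Without effector-like cluster 8, defined below, it did (-0.35, edgeR adjusted p = 0.00367), where 4262 of 11522 genes were lower. That alternative was chosen after seeing the data.

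**Figure D1:**
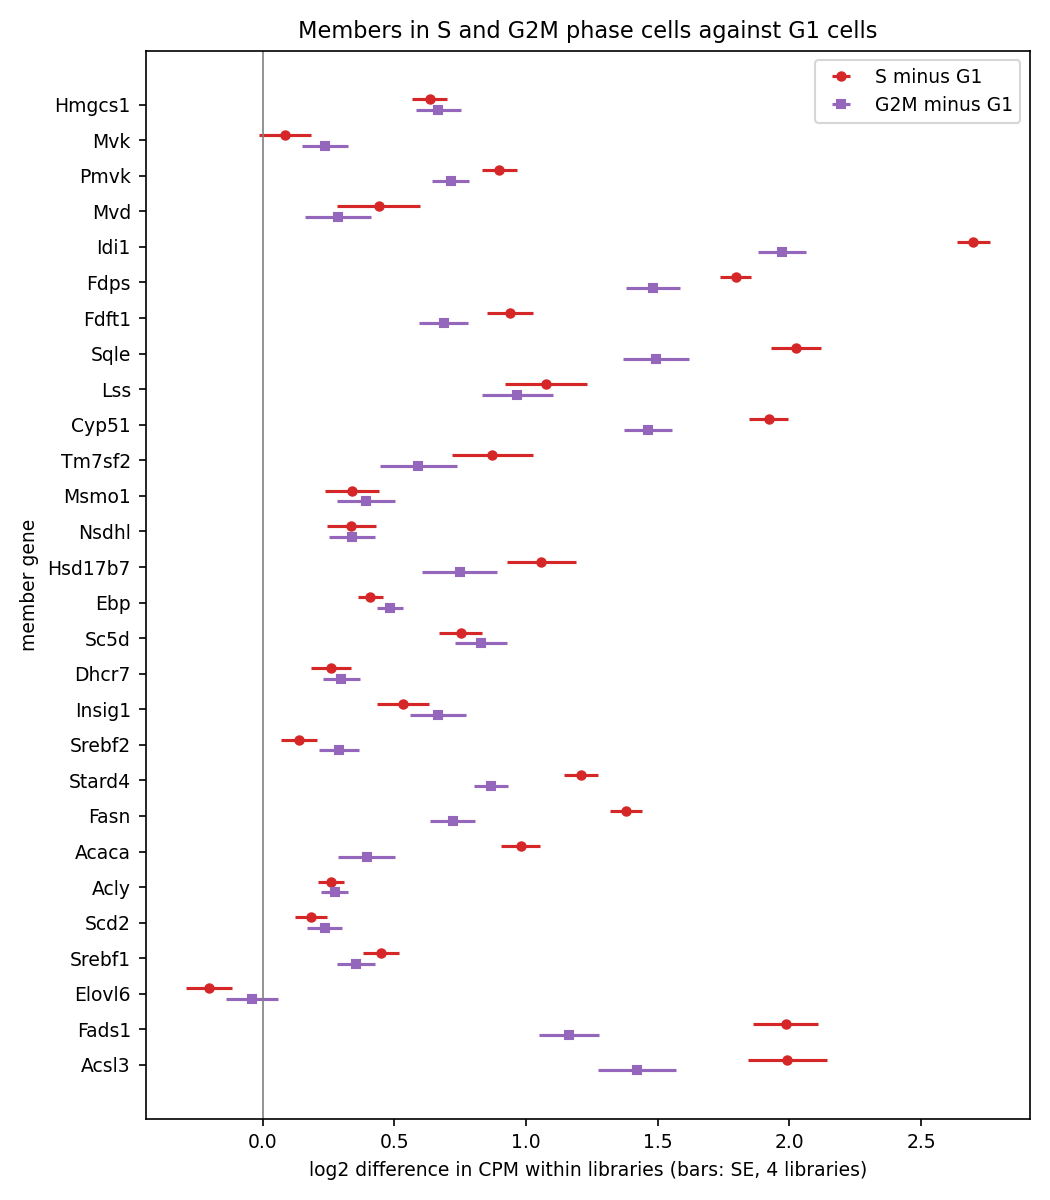
Log2 difference of each tested member in S phase cells (red circles) and G2M cells (purple squares) against G1 cells of the same library, on the x axis, with the member genes on the y axis. Bars are SEs of the fit over 4 libraries; Idi1 lies furthest right at 2.70 and 1.97, and Elovl6 lies left of 0 in both.

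In G2M cells Idi1 again had the largest difference. It was higher by 1.97 ± 0.09, with 34.1, 46.1, 40.6 and 33.5 CPM in G2M cells (M9 replicates 1 and 2, then C6M9 replicates 1 and 2). Sqle was higher by 1.49 ± 0.13, Fdps by 1.48 ± 0.10, Cyp51 by 1.46 ± 0.09 and Acsl3 by 1.42 ± 0.15. Hmgcs1 (0.67 ± 0.09), Insig1 (0.67 ± 0.11), Fasn (0.72 ± 0.09), Acly (0.27 ± 0.05), Srebf1 (0.35 ± 0.07) and Scd2 (0.24 ± 0.07) were also called, Scd2 not without C6M9 replicate 1 (edgeR adjusted p = 0.0759). G2M levels were 41.4, 42.5, 37.8 and 35.3 CPM for Hmgcs1, 11.8, 20.1, 11.5 and 10.4 CPM for Sqle, and 24.9, 36.8, 32.2 and 26.7 CPM for Fasn. All 3 of these genes were higher than in G1 in 4 of 4 libraries. Among the other members called were Pmvk (0.71), Fdft1 (0.69), Lss (0.97), Hsd17b7 (0.75), Sc5d (0.83), Stard4 (0.87) and Fads1 (1.16). The rest of those called were Tm7sf2 (0.59), Ebp (0.48), Acaca (0.40), Msmo1 (0.39), Nsdhl (0.34), Dhcr7 (0.30) and Srebf2. Mvk was called in G2M (0.24 ± 0.09, adjusted p = 0.0325), but not by DESeq2 (0.111) or without M9 replicate 1 (0.101) or 2 (0.0849). Mvd (0.29 ± 0.13, adjusted p = 0.0669) and Elovl6 (-0.04 ± 0.10, 0.730) did not pass.

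Whether the phase differences were of unequal size in the 2 antigen groups was tested as a product term. No member was called for S phase (74 of 12161 genes were, 0.609%) or for G2M (15 of 12679, 0.118%) by edgeR. For S phase, 6 of 29 members and 1140 of all genes had an unadjusted p under 0.05, and for G2M 10 of 29 members and 933 genes. The members' median term (C6M9 minus M9, log2) was -0.06 for S phase, with 12 positive, and -0.25 for G2M, with 6 positive. Over all genes the medians were -0.02 and 0.01. DESeq2 was not run on these terms. Phase calls are cuts of a score, and 1924 of 9924 cells lay within 0.05 of the cut. S and G2M member counts were 25 and 26 when phases were called from cells thinned to 2000 UMIs, the same numbers as with all UMIs.

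Other sterol genes, from a list beside the members, went both ways in S phase, with 9 of 15 higher and 6 lower. Lbr, a gene of this list, is also in the G2M list used for the phase calls, so its difference is not independent of the split. Tmem97, a sterol-regulated membrane protein, was higher by 2.96 and Acat2, which makes acetoacetyl-CoA, by 1.46. The 4 largest falls were in Npc2 (-0.83) and Npc1 (-0.48), which release cholesterol from lysosomes, Insig2 (-0.54), the second INSIG gene, and Ggps1 (-0.46), which makes geranylgeranyl diphosphate. Of 9 tested genes of sterol efflux, storage and LXR, 6 were lower and 1, Soat2, was higher. The lower ones included the efflux pumps Abca1 (-1.79) and Abcg1 (-1.19) and the LXR target Mylip (-1.78). Among other fatty acid genes, 8 of 18 synthesis genes were higher and 3 lower, and 4 of 12 uptake and oxidation genes were higher and 2 lower. These counts stand beside 36.4% of all tested genes higher and 38.2% lower in S phase. Fabp5, a fatty acid binding protein, was higher by 3.12.

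Cells were grouped into classes by clustering without the members or the other lipid genes, and member levels were then read in each class as a description. Names follow marker genes: memory-like (2512 cells, led by Ccl5 and Il7r), progenitor exhausted-like (2182, led by Kcnc1 and Izumo1r), TCR-activated-like (1437, led by Tnfrsf4, Cd83 and Egr3), interferon-like (340), cycling-like cluster 2 (1186, led by replication-dependent histone genes), cycling-like cluster 7 (754, led by the mitotic genes Ccnb2 and Cdc20), effector-like cluster 6 (1081, led by killer lectin receptor genes) and effector-like cluster 8 (339, led by Gzma, with Gzmb). Cluster 4 (93 cells, led by Igfbp4 and Cd4) stayed unnamed. Class sizes differed between groups: progenitor exhausted-like cells were 39.1% and 29.8% of M9 T cells and 4.29% and 5.71% of C6M9 T cells, and memory-like cells were 7.39% and 16.2% against 45.3% and 40.7%.

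The summed level of the 17 enzymes from Hmgcs1 to Dhcr7 was highest in cluster 8 and cycling-like cluster 2. It was 506, 554, 464 and 481 CPM in effector-like cluster 8, 508, 515, 502 and 424 CPM in cycling-like cluster 2 and 468, 412, 419 and 397 CPM in cycling-like cluster 7 (M9 replicates 1 and 2, then C6M9 replicates 1 and 2). These 3 ranges overlap between neighbours, and all 3 classes hold mostly cells called S or G2M, with 0.588% to 16.1% in G1. By mean, TCR-activated-like cells followed, at 258 and 236 CPM in M9 and 365 and 368 CPM in C6M9, below every cycling-like library. This place rests on C6M9. Memory-like cells, at 287 and 260 CPM in M9 and 257 and 258 CPM in C6M9, were above them in both M9 libraries. The means of the other classes were 266 ± 14.4 CPM (SD, n = 4) in memory-like, 227 ± 26.8 in interferon-like, 221 ± 23.7 in effector-like cluster 6 and 211 ± 9.92 in progenitor exhausted-like cells, and each overlaps its neighbour in this order. The cells of cycling-like clusters 2 and 7 were also pooled and compared with memory-like cells of the same library. The sum in the pooled cells was higher by a mean log2 ratio of 0.82 ± 0.10 (SD, n = 4). Cluster 8 had 13 cells in M9 replicate 2 and was not used in tests.

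**Figure D2:**
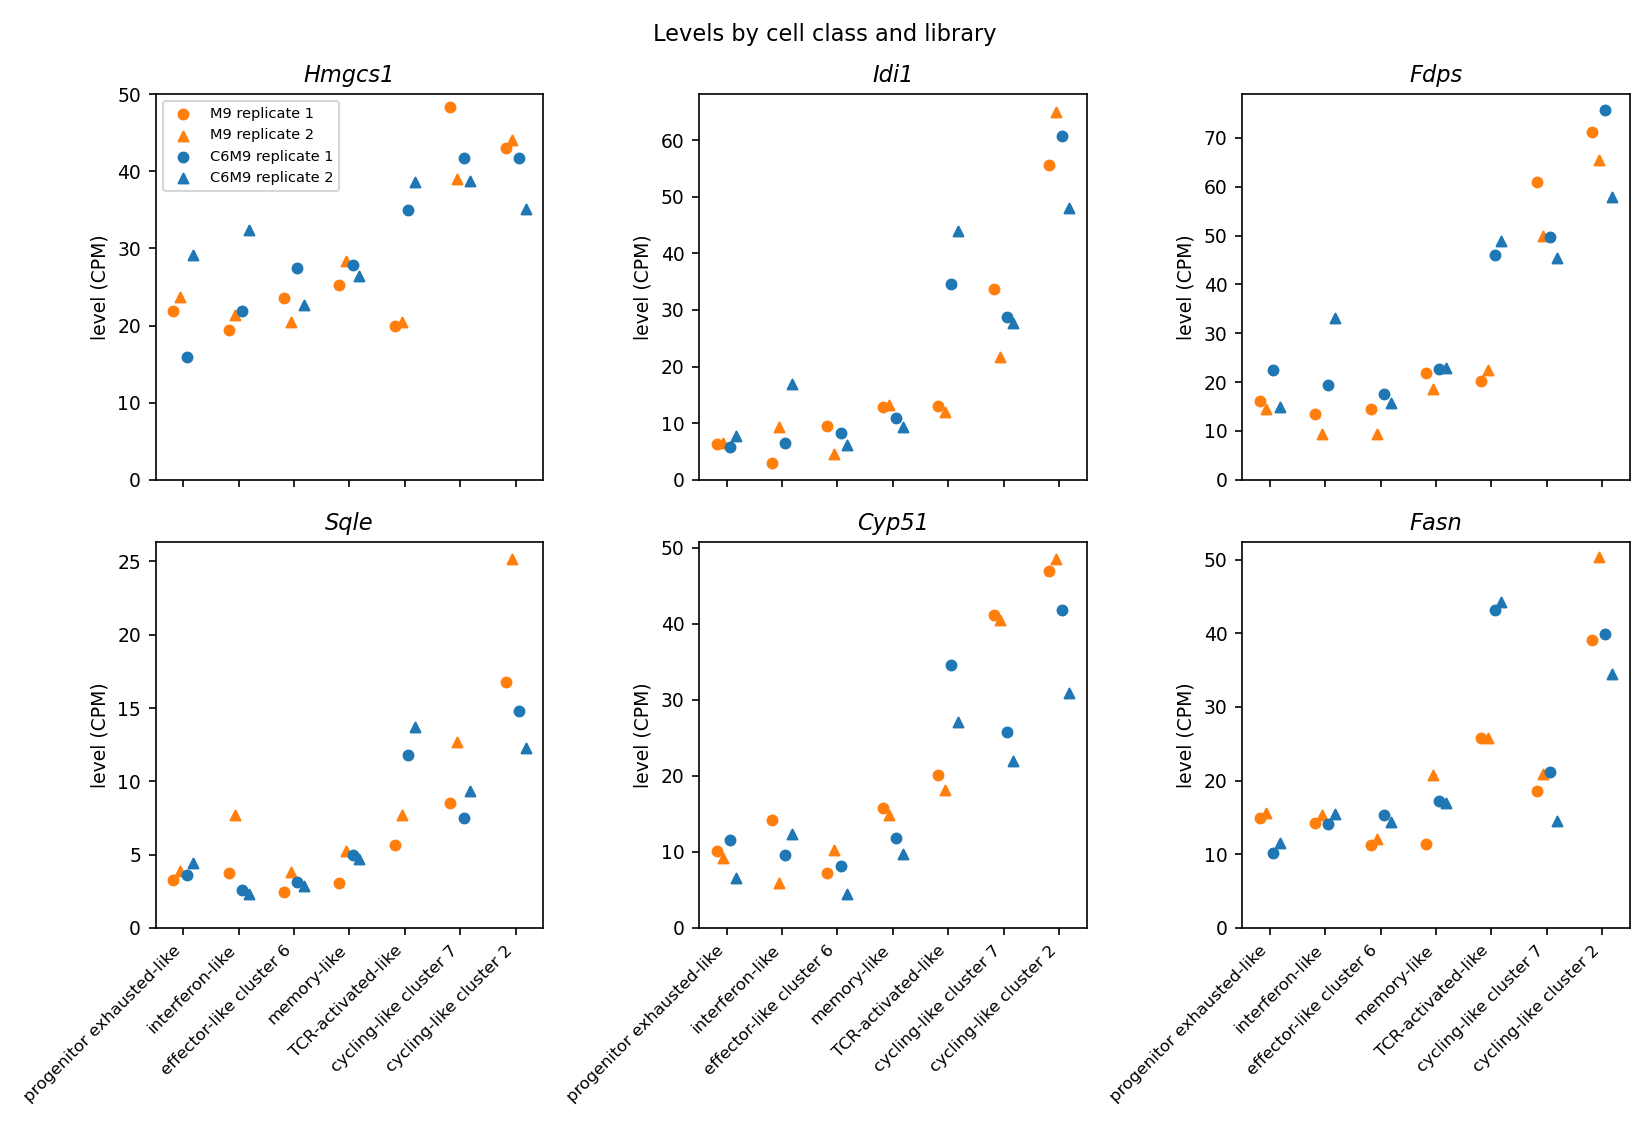
Levels (CPM, y axis) of Hmgcs1, Idi1, Fdps, Sqle, Cyp51 and Fasn in the 7 tested classes (x axis), 1 point per library, orange for M9 and blue for C6M9, circles for replicate 1 and triangles for replicate 2. Idi1 in cycling-like cluster 2 sits between 48.0 and 65.1 CPM, above all other classes shown. In TCR-activated-like cells both C6M9 points lie above both M9 points in all 6 panels. All 6 genes are members called higher in C6M9 in that class, so this separation adds no support to the calls. Effector-like cluster 8, with an Idi1 mean of 58.7 CPM, is not shown.

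The enzymes differed in how far they followed this order. Between the highest and lowest mean of the 8 named classes, Idi1 differed 8.96-fold, Acsl3 8.49-fold, Sqle 6.93-fold, Fads1 5.65-fold, Cyp51 5.59-fold and Fdps 5.04-fold, while Acly differed 1.43-fold, Srebf1 1.54-fold and Srebf2 1.61-fold. Across 28 sums of 7 classes in 4 libraries, Pearson's r with the summed level of the other sterol enzymes was 0.94 for Fdps, 0.94 for Pmvk, 0.93 for Idi1 and 0.90 for Hmgcs1. Fasn reached 0.74, Scd2 0.26 and Elovl6 -0.51. These points share libraries and depth, so the values are a description. Elovl6 and Scd2 were the members with their highest class mean in progenitor exhausted-like cells. Elovl6 was at 13.5, 14.3, 19.5 and 14.3 CPM there and at 8.39, 9.90, 9.67 and 11.6 CPM in cycling-like cluster 2, with no overlap.

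Over all T cells, 1 of 29 tested members passed the test between the antigen groups. It was Scd2, which was lower in C6M9. Of 13654 tested genes, 1.63% were higher and 4.1% were lower in C6M9 (edgeR). An unadjusted p under 0.05 was found for 6 of the 29 members and for 3273 of the 13654 genes. The members' median log2 difference was 0.02, against -0.02 for all genes, and 18 of 29 were positive. Scd2 was at 114 and 120 CPM in M9 and 63.9 and 58.8 CPM in C6M9, with no overlap. The log2 difference was -0.93 ± 0.08 (SE), and the edgeR adjusted p was 0.00169. The gene lies on chr19:44293674-44306864, plus strand, GRCm38, next to Scd1. These genes are similar, and how reads matching both were counted was not examined.

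Scd2 was lower in C6M9 within each of the 7 tested classes as well, including progenitor exhausted-like cells, where it was highest. It was called in TCR-activated-like (log2 -0.95 ± 0.16, edgeR adjusted p = 0.00224), cycling-like cluster 2 (-0.87 ± 0.12, 0.00846), cycling-like cluster 7 (-0.73 ± 0.10, 0.00347) and memory-like cells (-0.93 ± 0.11, 5.48e-04). In memory-like cells the level was 89.8 and 98.3 CPM in M9 and 46.9 and 52.1 CPM in C6M9. In cycling-like cluster 7 it was 135 and 134 CPM against 86.3 and 75.7 CPM. The difference did not pass the test in effector-like cluster 6 (-0.45 ± 0.12, adjusted p = 0.15), interferon-like (-0.62 ± 0.20, 0.209) and progenitor exhausted-like cells (-0.59 ± 0.15, 0.220). M9 and C6M9 libraries did not overlap in any of the 7 classes, but all classes come from the same 4 libraries. That separation is not a test, and the share of all genes that show it is not given here. A test of whether the Scd2 difference was unequal between classes gave an adjusted p of 0.184, and of 0.0304 without C6M9 replicate 1. Lower calls made up 6.73%, 0.684%, 0.647% and 0.423% of the genes tested in the 4 classes in which Scd2 was called, in the order given. In G1 cells alone the log2 difference over all T cells was -1.09 (adjusted p = 1.77e-04).

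**Figure D3:**
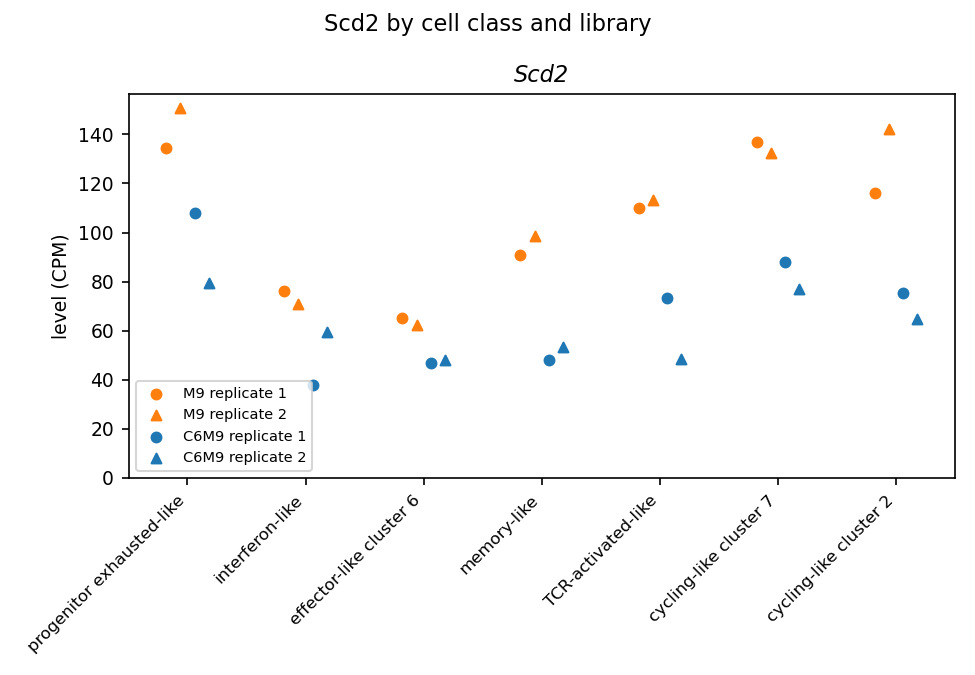
Scd2 level (CPM, y axis) in the 7 tested classes (x axis), 1 point per library, orange for M9 and blue for C6M9, circles for replicate 1 and triangles for replicate 2. Both M9 points lie above both C6M9 points in every class, from 134 and 151 against 108 and 79.3 CPM in progenitor exhausted-like to 65.1 and 62.5 against 46.9 and 48.0 CPM in effector-like cluster 6.

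Of the other desaturases, Scd1 and Fads2 were scarce. Scd1, the stearoyl-CoA desaturase best known from liver and fat, had 8 UMIs in each M9 library and 8 and 25 UMIs in C6M9 replicates 1 and 2, over all T cells. That is 0.111, 0.235, 0.122 and 0.421 CPM, and the groups overlapped (log2 0.76 ± 0.71, edgeR adjusted p = 0.555). Fads2, the delta-6 desaturase, had 9 and 3 UMIs in M9 and 14 and 7 in C6M9 and was not tested. It had no UMI in any cell called G1. A level of 3 UMIs corresponds to 0.0418, 0.0928, 0.0443 and 0.0494 CPM in these libraries, for counting error only.

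The sterol genes did not pass the test over all T cells. The largest difference after Scd2 and Scd1 was in Mvd, at 6.94 and 6.34 CPM in M9 and 8.86 and 9.26 CPM in C6M9 (log2 0.44 ± 0.11, edgeR adjusted p = 0.0585). Lss was at 4.01 and 5.63 against 6.15 and 6.26 CPM (0.39 ± 0.17, 0.214), and Idi1 at 21.8 and 26.3 against 33.6 and 29.0 CPM (0.39 ± 0.12, 0.107). Fdps was at 33.8 and 34.1 against 46.4 and 40.3 CPM (0.35 ± 0.09, 0.0724). In all 4 of these genes both C6M9 libraries lay above both M9 libraries. They were picked out by the size of this same difference, so the separation adds no support to it. With DESeq2 in place of edgeR, Idi1 (adjusted p = 0.0455) and Fdps (0.0290) passed. In G1 cells alone, without cells called S or G2M, Mvd (log2 0.75, edgeR adjusted p = 0.0161) and Fdps (0.41, 0.0339) were higher in C6M9. Acaca (-0.49, 0.0453) was lower, beside Scd2. Of all 12443 genes tested in G1 cells, 401 were higher and 646 lower. The members' median was 0.01, against -0.004 for all genes. Classes still differed among G1 cells: memory-like cells were 293 of 3174 and 192 of 927 in M9, and 1272 of 1982 and 687 of 1200 in C6M9.

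Regulators and entry enzymes did not pass either. Srebf2 was at 39.3 and 47.2 CPM in M9 and 43.9 and 46.1 CPM in C6M9 (log2 0.06 ± 0.10). Srebf1 was at 18.7 and 18.8 against 18.3 and 18.6 CPM (-0.03 ± 0.09). Insig1 was at 13.2 and 10.8 against 9.71 and 11.8 CPM (-0.17 ± 0.14). The groups overlapped except in Srebf1, where they differed by less than 1 CPM. Hmgcs1 was at 28.6 and 30.2 against 33.3 and 31.7 CPM (0.15 ± 0.09), Sqle at 7.59 and 11.6 against 9.85 and 9.26 CPM (0.02 ± 0.18), Fasn at 23.2 and 27.4 against 29.4 and 26.9 CPM (0.16 ± 0.11) and Acly at 49.0 and 52.7 against 52.1 and 53.7 CPM (0.06 ± 0.08). The remaining members had log2 differences between -0.34 (Acsl3) and 0.24 (Ebp), and none was called.

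In TCR-activated-like cells, 7 of 28 tested members were higher in C6M9 and Scd2 was lower, where 8.21% of 10064 genes were higher and 6.73% lower by edgeR. The members' median log2 difference was 0.28, against -0.01 for all genes. The class had 1015 and 215 cells in M9 and 110 and 97 in C6M9. In the 6 other classes, with 20 to 28 members tested, none was called higher by edgeR, and Scd2 and Cyp51 were the members called lower. The members' median was -0.18 in cycling-like cluster 2 (4 of 28 positive) and -0.15 in cycling-like cluster 7 (7 of 28). It was -0.10 in memory-like cells (9 of 28), 0.01 in effector-like cluster 6, -0.01 in interferon-like and 0.04 in progenitor exhausted-like cells. Medians of all genes in these classes lay between -0.01 and 0.00. Higher calls made up 1.13% of genes in cycling-like cluster 2, 0.309% in cycling-like cluster 7, 0.129% in memory-like, 0.0785% in effector-like cluster 6, 0.151% in interferon-like and 0.0914% in progenitor exhausted-like cells. Lower calls in the last 3 were 0.393%, 0.391% and 0.0914%, with no member among them. There 4 of 26, 3 of 20 and 3 of 27 members had an unadjusted p under 0.05, beside 1317 of 10191, 963 of 7928 and 777 of 9846 genes.

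The 3 mevalonate genes called were Idi1, Fdps and Hmgcs1. Idi1 was at 13.2 and 12.4 CPM in M9 and 33.8 and 43.1 CPM in C6M9, a log2 difference of 1.58 ± 0.17 (SE, edgeR adjusted p = 1.86e-04). Fdps was at 20.4 and 23.2 against 44.9 and 48.0 CPM (1.11 ± 0.14, 6.52e-04), and Hmgcs1 at 20.2 and 21.2 against 34.1 and 37.9 CPM (0.81 ± 0.15, 0.00376). In all 3 the lower C6M9 library was more than 10 CPM above the higher M9 library.

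Of the genes from squalene on, Lss, Sqle and Cyp51 were called. Lss was at 2.79 and 4.47 CPM in M9 and 7.31 and 7.13 CPM in C6M9 (1.10 ± 0.34, edgeR adjusted p = 0.0475), Sqle at 5.74 and 7.95 against 11.5 and 13.4 CPM (0.94 ± 0.25, 0.0258), and Cyp51 at 20.3 and 18.7 against 33.8 and 26.6 CPM (0.60 ± 0.16, 0.0286). The groups did not overlap, which adds no support because the genes were named for being called. These 3 calls rested on single libraries. Lss was lost without M9 replicate 1 (adjusted p = 0.270), C6M9 replicate 1 (0.12) or C6M9 replicate 2 (0.178), Sqle without M9 replicate 1 (0.118) or C6M9 replicate 2 (0.151), and Cyp51 without C6M9 replicate 1 (0.195).

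Fasn was the fatty acid gene called higher, at 26.0 and 26.7 CPM in M9 and 42.1 and 43.3 CPM in C6M9 (log2 0.70 ± 0.14, edgeR adjusted p = 0.00526). Scd2 went the other way in the same cells, at 111 and 117 CPM in M9 and 71.7 and 47.7 CPM in C6M9. Acly (45.6 and 47.4 against 50.1 and 52.1 CPM), Insig1 (10.7 and 9.28 against 11.5 and 12.3 CPM), Srebf2 (33.6 and 38.8 against 43.2 and 47.7 CPM) and Srebf1 (16.0 and 19.9 against 12.5 and 17.8 CPM) did not pass. Scd1 and Fads2 were not tested in this class.

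**Figure D4:**
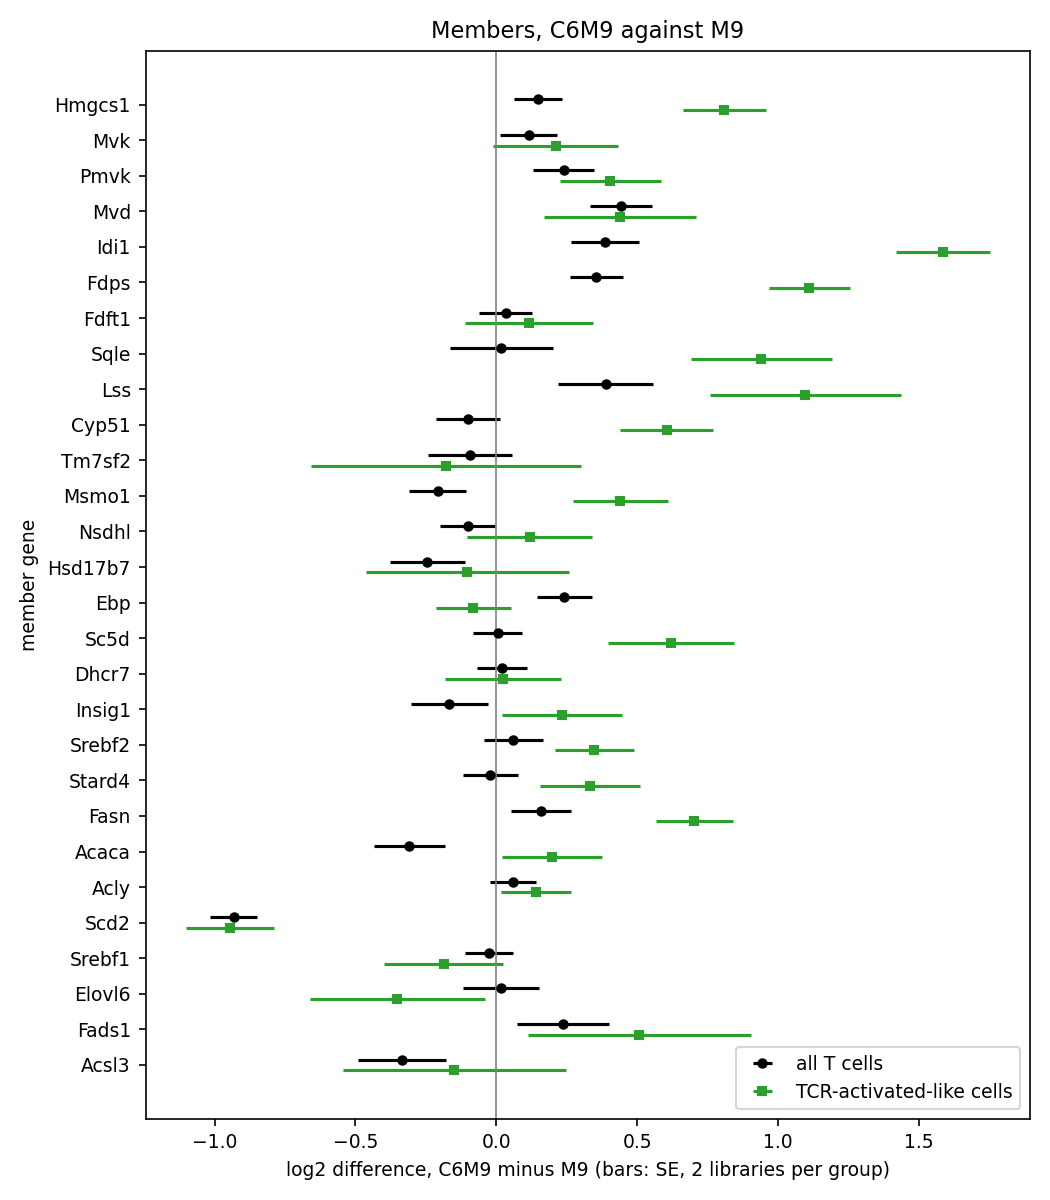
Log2 difference of each member, C6M9 minus M9 (x axis), over all T cells (black circles) and in TCR-activated-like cells (green squares), with the 28 members tested in both on the y axis. Bars are SEs of fits over 2 libraries per group; Scd2 lies near -0.9 in both, while Idi1 lies at 0.39 over all T cells and 1.58 in TCR-activated-like cells.

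Cell cycle differed between the groups in this class. S phase cells were 8.47% and 7.91% of it in M9 and 21.8% and 23.7% in C6M9, and 29 of 42 tested S phase genes were higher in C6M9. TCR-induced genes also differed, with 13 of 22 lower in C6M9. Summed CD4 T cell markers were at 254 and 190 CPM in M9 and 94.0 and 99.3 CPM in C6M9 in this class, with a UMI in 6 of 6 genes (5 of 6 in C6M9 replicate 1), and summed myeloid markers at 96.2 and 76.3 against 65.8 and 70.9 CPM. The part of these markers in the differences was not tested. In G1 cells of the class alone, an alternative chosen after seeing the data, Idi1 (log2 1.55, edgeR adjusted p = 1.93e-05), Lss (1.54, 0.0161), Fdps (0.86, 0.00371), Fasn (0.55, 0.0464) and Msmo1 (0.75, 0.0155) were higher and Scd2 was lower (-1.03, 1.67e-04). Sqle (0.98, 0.0575), Cyp51 (0.61, 0.0685) and Hmgcs1 (0.59, 0.0502) no longer passed. Of all 9646 genes tested in these G1 cells, 530 were higher and 465 lower in C6M9. The members' median log2 difference was 0.21 there, against -0.01 for all genes. The part of the TCR-induced genes in these differences was not tested within the class.

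Of the other sterol genes, 4 of 15 tested were higher in C6M9 in this class and none was lower, where 8.21% of all tested genes were higher. Among them, Tmem97 was higher by 1.30 ± 0.17 on the log2 scale, Acat2 by 0.74 ± 0.23 and Npc2 by 0.42 ± 0.11. The 2 genes of sterol efflux called were lower: Abca1 was at 12.3 and 14.1 CPM in M9 and 2.09 and 1.10 CPM in C6M9 (-3.07 ± 0.35, edgeR adjusted p = 3.04e-04), and Abcg1 differed by -0.71 ± 0.20. Of 17 other fatty acid synthesis genes, Acss2 (0.93) and Mecr (0.79) were higher and Lpin1 (-0.65) was lower. Over all T cells, Abca1 was also lower (-1.35 ± 0.16, adjusted p = 0.00546), and Npc2 (0.48), Mecr (0.48) and Elovl7 (0.89) were higher.

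Whether the difference between antigen groups was unequal across the 7 classes was tested in edgeR over class sums. It was for 10 of 28 members, where 16.2% of 11340 genes were called. The 4 smallest adjusted p-values were 5.81e-06 for Fdps, 2.56e-05 for Idi1, 2.45e-04 for Cyp51 and 2.54e-04 for Sqle. Idi1, for instance, had log2 differences of 1.58 in TCR-activated-like, 0.90 in interferon-like, 0.14 in progenitor exhausted-like, -0.04 in cycling-like cluster 7, -0.05 in effector-like cluster 6, -0.14 in cycling-like cluster 2 and -0.40 in memory-like cells. Cyp51 ranged from 0.60 in TCR-activated-like cells to -0.80 in cycling-like cluster 7, where it was at 40.7 and 40.9 CPM in M9 and 25.3 and 21.5 CPM in C6M9 (edgeR adjusted p = 0.0170, and 0.0791 without C6M9 replicate 2). Without C6M9 replicate 2, the number of members called in the test across classes fell from 10 to 3.

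Cells with strong and weak TCR-induced signal were then compared within G1 and within libraries, to see whether the members follow that signal outside the cell cycle. The score counted UMIs of 22 TCR-induced genes, none a member, after thinning each cell to 2000 UMIs; high cells had at least 3 and low cells at most 1. Of 28 tested members, 2 were higher and none lower, where 8.72% of 11362 genes were higher and 7.5% lower. The members' median log2 difference was 0.00, close to the -0.01 of all genes. Acaca was higher by 0.35 ± 0.12, from 10.4, 11.9, 7.66 and 7.23 CPM to 11.7, 14.5, 11.1 and 11.1 CPM (M9 replicates 1 and 2, then C6M9 replicates 1 and 2), with an edgeR adjusted p of 0.0482. Fasn was higher by 0.25 ± 0.08, from 16.3, 17.9, 17.6 and 17.5 CPM to 19.7, 22.4, 21.2 and 19.1 CPM (0.0497). Both rose in 4 of 4 libraries, but DESeq2 called neither (0.224 and 0.325), and each rested on single libraries. Acaca lost its call without any 1 of the 4 libraries, and Fasn without M9 replicate 1 (adjusted p = 0.242), M9 replicate 2 (0.134) or C6M9 replicate 1 (0.114). With high cells set from the 90th percentile, which is 5 UMIs, Acaca (0.51, edgeR adjusted p = 0.0449) and Fasn (0.52, 0.00415) were higher, and Mvd (-0.71, 0.0470) and Dhcr7 (-0.50, 0.0265) were lower. Of all 10981 genes tested at that cut, 1286 were higher and 926 lower. The members' median was -0.04, against 0.01 for all genes. Of 7275 G1 cells, 2318 lay within 1 UMI of the main high cut.

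The sterol enzymes showed no common direction with TCR-induced signal in G1. Lss had the lowest difference (-0.37 ± 0.24), with 3.45, 4.16, 4.38 and 4.78 CPM in low cells and 1.52, 2.56, 5.70 and 5.27 CPM in high cells. Cyp51 had the highest (0.35 ± 0.12, edgeR adjusted p = 0.0641), with 12.8, 10.9, 12.5 and 8.58 against 12.7, 18.9, 17.7 and 11.6 CPM. Neither moved one way in all 4 libraries. Hmgcs1 was at 24.2, 23.9, 27.2 and 26.9 CPM in low cells and 18.7, 25.9, 31.0 and 25.1 CPM in high cells, and Sqle at 3.63, 4.51, 4.28 and 5.15 against 3.50, 6.06, 8.86 and 4.46 CPM. Srebf2 was at 35.4, 42.2, 41.7 and 45.8 against 35.1, 41.3, 48.4 and 50.5 CPM, Srebf1 at 16.1, 15.3, 16.8 and 16.5 against 16.9, 17.5, 14.2 and 15.8 CPM, and Insig1 at 10.1, 9.62, 6.41 and 10.6 against 10.6, 8.62, 7.91 and 12.6 CPM. Each of these 5 genes was higher in some libraries and lower in others. Scd2 was at 112, 117, 53.9 and 55.1 against 113, 113, 57.3 and 49.2 CPM (-0.03 ± 0.05), so that in low and in high cells alike both M9 libraries lay above both C6M9 libraries. Acly, at 46.3, 51.3, 47.0 and 50.4 against 44.7, 46.6, 42.7 and 44.98 CPM, was lower in 4 of 4 libraries without passing (-0.11 ± 0.06). Acsl3 was at 1.49, 1.82, 1.39 and 1.41 against 2.59, 2.10, 1.90 and 1.01 CPM (0.40 ± 0.28, not called). The product of TCR-induced signal and antigen group was called for 0 of 28 members and 0.852% of 11977 genes, with 4 members and 1051 genes at an unadjusted p under 0.05.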

How the data were processed

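The authors deposited 1 matrix of raw UMI counts per library, made with Cell Ranger 6.0.0 on mm10 per the submitters' processing notes. Whether intronic reads were counted is not given in the sources used here. Barcodes were required to have 500 genes, 1000 UMIs and no more than 10% of UMIs from mitochondrial genes (10324 passed). Scrublet's automatic threshold marked under 0.5% of barcodes in each library, so the highest scores were left out at 0.8% per 1000 barcodes (277 cells), and 123 B cell-like cells were left out. Clustering (scanpy 1.11.5, 2000 variable genes without members, other lipid, receptor variable, mitochondrial, ribosomal and sex genes, 30 components, 15 neighbours, Leiden 0.6) gave the classes, named from marker lists, with doubtful clusters left unnamed. Classes with at least 50 cells in every library were tested. Phases came from scanpy's scores.

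UMIs were summed per library and compared with edgeR 4.0.16 (R 4.3.3; TMM, filterByExpr, quasi-likelihood, two-sided, Benjamini-Hochberg over all genes, called at 0.05), with the library as replicate and as a term in phase and TCR comparisons. CPM values are TMM-scaled within each fit, so levels of a gene differ slightly between comparisons, and class levels share 1 scaling. Median depth per T cell was 13205 to 21488 UMIs. Errors given as SE or SD cover the spread between libraries, and the level of 3 UMIs given for Scd1 and Fads2 covers counting error only. The test was checked on simulated counts. Empty droplets were not analysed here, so the level of free RNA is unknown. Alternatives were other normalization (RLE), no count filter, DESeq2 1.42.0, each library left out, a replicate block, doublets kept, a stricter cell filter, G1 cells only, thinned phases and another TCR cut.

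Members and lists were chosen with earlier results of these data known. Values in every library are given for members called, the 4 with the largest difference, and Srebf2, Srebf1, Insig1, Hmgcs1, Sqle, Scd1, Scd2, Fasn and Acly; in the phase comparisons, for brevity, the other called members are given by their range or log2 difference alone, and within the other classes members that were not called are given by counts or in the plots. Of each other lipid list, at most 4 called genes per direction are named, and some are not reported here. Coordinates are from GENCODE M21 (GRCm38).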

Additional observations from a re-analysis of the deposited data

Results flagged for a closer look

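For 10 members the difference between C6M9 and M9 was unequal across the 7 tested classes, by the edgeR F test of the product of class and group. The adjusted p-values were 5.81e-06 for Fdps, 2.56e-05 for Idi1, 2.45e-04 for Cyp51, 2.54e-04 for Sqle, 0.00245 for Fasn, 0.00302 for Msmo1, 0.00390 for Hmgcs1, 0.0144 for Lss, 0.0275 for Acaca and 0.0484 for Srebf2. TCR-activated-like cells had the highest log2 difference of the classes in all of these but 3: Fdps (1.11 there and 1.15 in interferon-like cells), Srebf2 (0.35 and 0.65) and Acaca, which was highest in cycling-like cluster 7 (0.39). Of the 10, 8 kept their call without M9 replicate 1, 7 without M9 replicate 2, 8 without C6M9 replicate 1 and 3 without C6M9 replicate 2.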

How the results depend on the processing

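With 2 libraries per group, calls near the threshold move with single libraries, and no member changed direction under any alternative in a comparison where it was called. Over all T cells, 782 genes and 1 member were called. Without the count filter these were 1934 and 4, and leaving out 1 library gave 239 to 1882 genes and 1 to 6 members; members called were 3 with DESeq2, 2 with doublets kept and 4 in G1 cells only. Scd2 kept its call under all 11 alternatives. The labels do not say that a replicate number marks a shared batch, and deviations of same-numbered libraries were not correlated (r = -0.0018 across 13654 genes). With the replicate block 892 genes and 1 member were called over all T cells, calls added over the classes were 2908 for genes and 13 for members, and effector-like cluster 6 went from 8 higher and 40 lower genes to 117 and 155. Added over the 7 classes, where a gene called in several counts each time, there were 1980 calls of genes and 12 of members, 3605 and 20 without the filter, and 951 to 3970 and 9 to 16 without 1 library each. In TCR-activated-like cells, 1503 genes were called, 995 in G1 cells only (chosen after seeing the data), and 690 to 1773 without 1 library, with 5 to 9 members higher. The test across classes called 524 to 1476 genes and 3 to 10 members without 1 library. For TCR-induced signal, DESeq2 called 856 genes and 0 members higher, against 1843 and 2, and leaving out 1 library gave 701 to 2290 genes and 0 to 1 members. Members higher in S phase were 24 to 26, and in G2M 25 to 26, without 1 library each. Members with few UMIs, such as Scd1, Fads2 and Tm7sf2, limit what could be detected.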

Other observations

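In G2M cells the genes beside the list followed the S phase pattern in part. Tmem97 was higher than in G1 by 2.70 ± 0.15 and Fabp5 by 2.43 ± 0.14, while Abca1 was lower by 2.06 and Abcg1 by 1.02 on the log2 scale. Mecr and Mid1ip1, genes of mitochondrial fatty acid synthesis and of acetyl-CoA carboxylase activation, were higher in S phase by 1.55 ± 0.08 and 1.39 ± 0.06. Acss2, which makes acetyl-CoA from acetate, was lower in S phase (-0.95 ± 0.12), in G2M (-0.61 ± 0.09) and in G1 cells with strong TCR-induced signal (-0.68 ± 0.13). In those G1 cells Tmem97 was higher (0.92 ± 0.22) in 4 of 4 libraries, as was Fabp5 (0.50 ± 0.09). Abca1 also passed (0.63 ± 0.20), but it was higher in the 2 M9 libraries and lower in the 2 C6M9 libraries. The calls in this paragraph are by edgeR at an adjusted p of 0.05.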
